A study of Arabidopsis thaliana with 6 samples.

Results

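Retained introns of common length in Arabidopsis ovules were taken from a deposited intron table in the column layout of IRFinder, a program that compares the read depth over an intron with the reads spliced across it. The retention ratio sets the depth of the intron against that depth plus the reads spliced at whichever end has more. An intron counted as retained when the table gave it no warning, its name marked no known exon, its depth and spliced reads added up to at least 10, its length was at least 76 and under 1000 bases and its ratio was at least 0.1. Of 118281 introns in the table, 55285 carried no warning, 53563 of those held no known exon, 50706 of those were of that length and are called measured introns here, and 3658 of them (7.21%) passed the ratio. They lay in 2756 of the 11420 genes with a measured intron. The table names no sample, so its values belong to no genotype and were not compared between genotypes. The introns were thus chosen by their ratio, depth and splice counts, and these values are given as a description with no test.

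The study sequenced ribosome-depleted, stranded total RNA of mature ovules dissected from stage 13 to 14 flowers of Arabidopsis thaliana plants 6 weeks old. The 3 control libraries came from wild type plants. The other 3 came from plants with T-DNA insertions, labelled PRP8Aa prp8bb, and hold a mixture of PRP8A;prp8b and prp8a;prp8b ovules. The labels do not give the share of each. Gene counts per library totalled 8497702 to 12644525, with the lowest total in wild type replicate 1, in which 77.6% of nonzero counts were even against 47.7% to 48.6% elsewhere. A fragment may thus appear as 2 counts in its deposited gene table, which was not altered for the main test. Its exon bin counts totalled 7361474 against 18706217 to 23086207 in the other libraries. All 4 ovule markers (STK, BEL1, INO and ANT) were detected, at a summed 229 to 280 CPM (counts scaled by library size) in wild type and 223 to 230 in PRP8Aa prp8bb. The sum hides differences between its members. STK measured 108 to 144 CPM in wild type and 75.2 to 90.5 in PRP8Aa prp8bb, and INO 26.4 or more in wild type and 23.4 or less in PRP8Aa prp8bb. ANT measured 68.7 to 80.4 CPM in wild type and 87.1 to 99.4 in PRP8Aa prp8bb, with no overlap in any of these. BEL1 overlapped, at 25.9 to 29.7 and 28.6 to 34.1 CPM. The share of all genes that separate in this way was not counted, so no tissue difference is drawn from it. The 4 embryo sac markers (EC1.1, EC1.2, AGL80 and FIS2) summed to 12.9 to 15.9 CPM in wild type and 3.75 to 6.00 in PRP8Aa prp8bb. The 3 pollen markers (VGD1, PPME1 and AGP6) summed to 262 to 268 CPM in wild type and 234 to 611 in PRP8Aa prp8bb, and these sums overlapped. VGD1 made up most of them, at 224 to 238 and 179 to 485 CPM. PPME1 measured 9.75 to 17.3 and 33.5 to 82.4 CPM, and AGP6 18.6 to 20.3 and 21.7 to 43.6 CPM. The 3 leaf markers (RBCS1A, LHCB1.1 and RCA) summed to 3034 to 3474 and 2563 to 3443 CPM.

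PRP8 is the protein at the centre of the spliceosome, where it holds the splice sites and the catalytic RNA of the U5 and U6 particles. The spliceosome finds an intron by the short sequence at its 5′ end, which pairs with U1 and then U6 RNA, by the branch point, and by the pyrimidine-rich stretch and AG at its 3′ end. Plant introns are short and rich in A and T compared with exons, and intron retention is the most common form of alternative splicing in plants. A retained intron in a coding region usually brings a stop codon into the reading frame, and transcripts with a stop ahead of further exon junctions can be targets of nonsense-mediated decay or can be held in the nucleus.

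Among nuclear introns with a depth and a spliced read count of at least 20, those of highest ratio had low-scoring 5′ splice sites. Scores measure likeness to the usual sequence of nuclear introns and are given further on. The PTM intron had a higher ratio, but only 8 spliced reads, and scored 8.09. The following are shown because they had the highest ratios among nuclear introns with a depth and a spliced read count of at least 20; the intron of UAP56a, which also belongs to that set, is described later but not printed because it is 684 bases long. The coordinates are TAIR10, in which nuclear positions are the same as in the RefSeq assembly TAIR10.1 that supplied the letters. AT5G24810, a gene of the ABC1 kinase-like family, held its intron at chr5:8521552-8521645 on the minus strand. The intron of ATAF1, a NAC transcription factor of stress responses, was chr1:268631-268716 on the plus strand. LOG5, an enzyme that releases active cytokinin, held it at chr4:16746832-16746920 on the plus strand. LACS4, a long-chain acyl-CoA synthetase, held it at chr4:12405213-12405318 on the minus strand. AtIPCS1, an inositol phosphorylceramide synthase of sphingolipid metabolism, held it at chr3:20006965-20007050 on the plus strand. SR45a, an RNA-binding splicing regulator related to SR proteins, held it at chr1:2259153-2259276 on the minus strand. The intron of AT1G02080, annotated as a transcription regulator, was chr1:382930-383029 on the plus strand. Each sequence runs 5′ to 3′ over the whole intron, and capitals mark the first stop codon in the frame of the upstream coding exons; ATAF1 and AtIPCS1 have none.
AT5G24810: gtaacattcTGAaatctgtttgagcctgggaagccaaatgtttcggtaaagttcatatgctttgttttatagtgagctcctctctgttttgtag
ATAF1: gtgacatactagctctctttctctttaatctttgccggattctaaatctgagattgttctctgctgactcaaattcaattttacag
LOG5: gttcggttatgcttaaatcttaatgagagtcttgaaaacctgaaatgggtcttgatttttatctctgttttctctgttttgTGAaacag
LACS4: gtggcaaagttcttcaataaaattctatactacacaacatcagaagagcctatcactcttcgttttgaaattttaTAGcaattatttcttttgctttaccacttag
AtIPCS1: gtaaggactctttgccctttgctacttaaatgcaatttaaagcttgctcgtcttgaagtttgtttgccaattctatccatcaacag
SR45a: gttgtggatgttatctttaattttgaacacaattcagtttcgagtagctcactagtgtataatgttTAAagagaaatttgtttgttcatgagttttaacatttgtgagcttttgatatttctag
AT1G02080: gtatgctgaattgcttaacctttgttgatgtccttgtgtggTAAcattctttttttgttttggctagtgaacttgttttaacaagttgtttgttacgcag

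PHV, PHB and CNA are shown next, because these related regulators of ovule development each held 1 retained intron. They are class III homeodomain leucine zipper (HD-ZIP III) proteins that set adaxial identity and take part in integument growth. The introns were chr1:10797286-10797373 in PHV, chr2:14640540-14640630 in PHB and chr1:19411548-19411632 in CNA, all on the minus strand, with the in-frame stop in capitals.
PHV: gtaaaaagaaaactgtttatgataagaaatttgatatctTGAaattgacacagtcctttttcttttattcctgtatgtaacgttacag
PHB: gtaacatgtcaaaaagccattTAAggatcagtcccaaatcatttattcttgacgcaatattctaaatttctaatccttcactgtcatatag
CNA: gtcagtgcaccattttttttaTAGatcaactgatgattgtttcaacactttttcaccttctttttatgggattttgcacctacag

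A small class of introns is removed by the minor spliceosome, which recognises a long, strict 5′ site and also contains PRP8. For each kind of intron ends, the 2 retained introns of highest ratio with that 5′ site are shown, again with the in-frame stop in capitals. They lay at chr3:21923063-21923171 on the minus strand in AT3G59310, at chr1:5861667-5861755 on the minus strand in AT1G17145, at chr5:8350427-8350544 on the plus strand in AT5G24450 and at chr1:28584911-28585001 on the minus strand in AT1G76170. The first pair begins with gt and the second pair begins with at and ends with ac.
AT3G59310: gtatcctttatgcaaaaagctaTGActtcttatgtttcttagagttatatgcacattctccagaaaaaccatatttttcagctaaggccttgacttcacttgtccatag
AT1G17145: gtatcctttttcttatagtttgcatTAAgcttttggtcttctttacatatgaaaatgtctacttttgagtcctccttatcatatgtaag
AT5G24450: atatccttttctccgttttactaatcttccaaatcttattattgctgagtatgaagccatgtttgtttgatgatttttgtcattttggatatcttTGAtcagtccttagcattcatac
AT1G76170: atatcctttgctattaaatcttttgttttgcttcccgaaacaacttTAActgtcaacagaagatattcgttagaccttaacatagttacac

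Most retained introns passed at low depth. The ratio had a median of 0.135, with quartiles of 0.111 and 0.176, and 281 introns sat at exactly 0.1. The depth had a median of 2.78 and was under 5 in 3101 introns (84.8%), at least 10 in 102 and at least 20 in 21. Reads spliced at both ends had a median of 15, against 32 in the other 47048 measured introns. The spliced form was the larger one in nearly all of them, since 3643 (99.6%) had more spliced reads than depth. Reads crossed both intron borders in 87.8% of retained introns and in 37.4% of the others, and every counted base was covered in 80.3% and 25.2%. Border reads and cover are not independent of the depth that the rule used. A difference was thus built in, and no support is drawn from it.

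**Figure D1:**
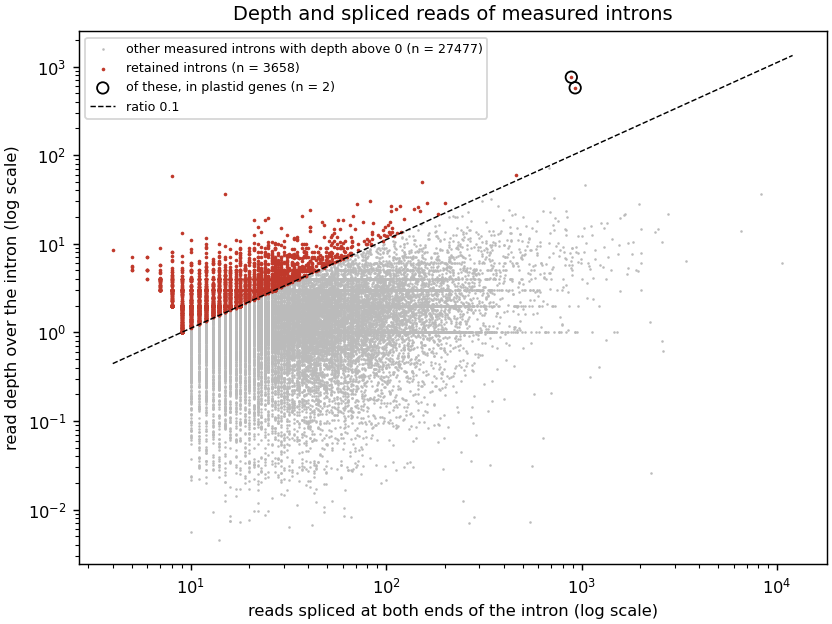
Read depth over the intron (vertical, log scale) against reads spliced at both ends (horizontal, log scale) for measured introns in the table; red points are the 3658 retained introns, grey points the others with a depth above 0, circles the 2 plastid introns, and the dashed line a ratio of 0.1. Most red points lie below a depth of 5, and the plastid introns stand apart at 758 and 575.

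The minimum depth needed to pass rises with the spliced reads, and the share that passed fell with them. Of introns with under 10 spliced reads, 593 of 611 (97.1%) were retained, because a sum of 10 then needs a depth that also meets the ratio in most cases. The share was 13.7% at 10 to 19 spliced reads, 4.63% at 20 to 49, 1.02% at 50 to 99 and 0.553% at 100 or more, where 26 of 4699 introns passed. Just inside the ratio limit stood introns of PAH1, AT1G58110 and AT2G47410, at 0.1 with depths of 5, 4 and 4. Just outside stood introns of AT1G30820, CPR5 and AT4G38120, at ratios of 0.09997, 0.09994 and 0.09990, with depths of 16.8, 1.55 and 2.44.

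**Figure D2:**
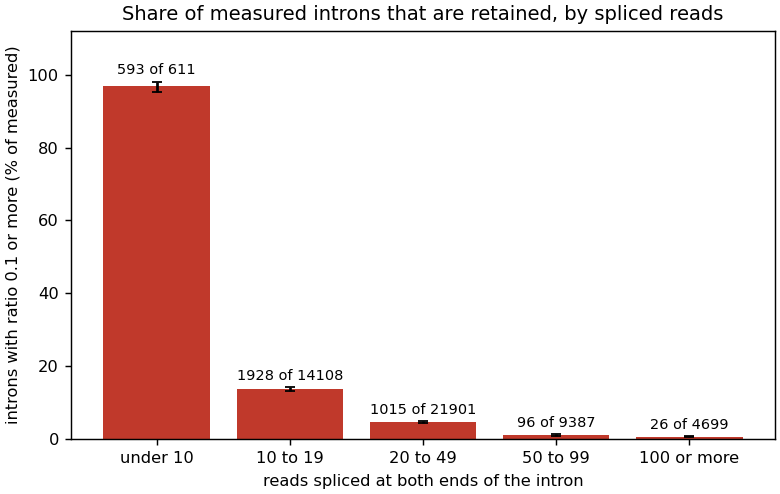
Share of measured introns that were retained (vertical, percent) in 5 classes of reads spliced at both ends (horizontal); bars are shares, error bars 95% Wilson intervals for counting error, and the numbers give introns. The share falls from 97.1% in the lowest class to 0.553% in the highest.

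The deepest of them were plastid introns. PETB and PETD, which encode cytochrome b6 and subunit IV of the cytochrome b6f complex, each hold a group II intron that is removed without the spliceosome. The PETB intron had a depth of 758, 886 spliced reads and a ratio of 0.461, and the PETD intron had 575, 927 and 0.383. They were the only plastid introns among the measured ones, so the remaining 3656 retained introns are nuclear.

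Among nuclear introns with depth and spliced reads of at least 20, AT5G24810 had the highest ratio, 0.362, from a depth of 23.8 and 41 spliced reads. ATAF1 followed at 0.358 (depth 20.7, 37 spliced reads), and it is the first of 2 introns of its gene. The intron of LOG5 reached 0.284 (depth 28.1, 71 spliced reads) and that of LACS4 0.269 (depth 30.6, 83 spliced reads). AtIPCS1 stood at 0.232, UAP56a at 0.231, SR45a at 0.2 and AT1G02080 at 0.184. UAP56a encodes a DEAD-box helicase that acts in spliceosome assembly and mRNA export. Its intron, at chr5:3554940-3555623, was long at 684 bases and unevenly covered, with a depth of 26.1 over its first 50 bases and 62.6 over its last 50. The intron of AT5G42050, a gene with a development and cell death domain, was among the deepest at 59.5, but 464 spliced reads put its ratio at 0.114.

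Border reads gave a second reading of the same introns, which comes from the same libraries and is no independent replicate. Reads across the borders made up 40.3% of border and spliced reads in AT5G24810 (95% Wilson interval 32.5% to 48.6%), 36.2% in ATAF1 (28.0% to 45.3%) and 27.6% in LOG5 (21.8% to 34.2%). In AT5G42050 they made up 11.1% (9.34% to 13.1%). Here a spliced read counts at each end, and a read may cross both borders of a short intron. The intervals are thus narrower than counting error alone would make them.

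**Figure D3:**
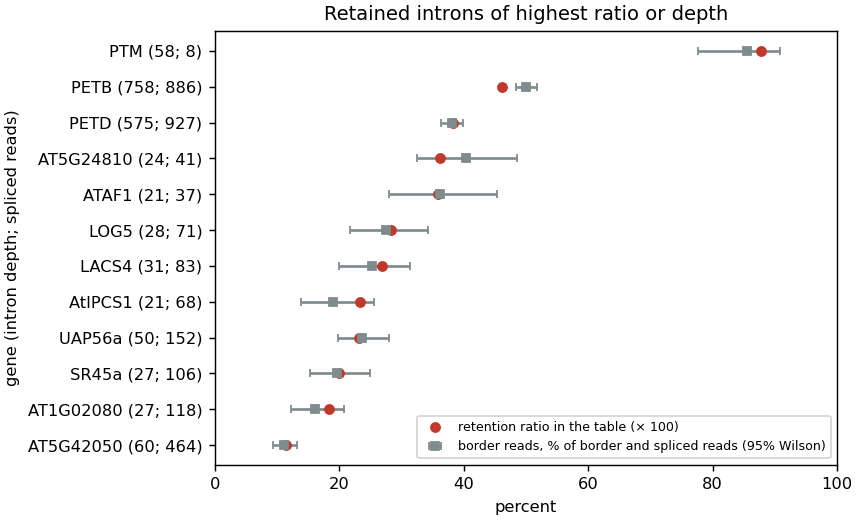
Retention ratio times 100 (red circles) and share of border reads among border and spliced reads (grey squares with 95% Wilson intervals) for the 12 retained introns of highest ratio or depth, with depth and spliced reads in brackets. PTM stands at the top with a ratio of 0.878, and AT5G42050 at the bottom with 0.114. The intervals are too narrow, since a spliced read counts at each end.

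Unspliced signal reached or exceeded the spliced reads in 15 introns with a ratio of 0.5 or more. These were listed after their values were seen. The highest ratio of all, 0.878, was in PTM, a PHD-type transcription factor anchored in membranes, with a depth of 57.8 and 8 spliced reads. That intron is the first of 16 and lies in the 5′ UTR, at chr5:13482355-13482444 on the minus strand. Border reads made up 85.5% of its border and spliced reads (77.7% to 90.8%, too narrow as described above). AT5G27860, an uncharacterized protein, followed at 0.707 from a depth of 36.2 and 15 spliced reads. The DnaJ-domain gene AT4G37480 had 0.677 from a depth of 8.40 and 4 spliced reads. Introns 5 and 3 of the kinase gene AT5G11400 had 0.594 and 0.503, and they were the only introns measured in that gene. The other 10 lay in AT4G28703 (a cupin), AT5G07730 (uncharacterized), AT2G41705 (CrcB family), PAP13 (a purple acid phosphatase), HSFC1 (a heat shock transcription factor), MTM2 (a myotubularin-like phosphatase), VLN1 (a villin, which bundles actin), AT3G02070 (a cysteine proteinase family member), SKIP4 (an F-box protein partner of SKP1) and AT5G08510 (a pentatricopeptide repeat protein), with ratios from 0.5 to 0.583. Their depths ran from 5 to 11.

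The 5′ splice site was scored in bits against the letters of all nuclear introns in the table, over 3 exon and 6 intron bases, and the rule did not use this score. The 8 nuclear introns of highest ratio with depth and spliced reads of at least 20, UAP56a included, scored from 2.75 (LACS4) to 4.57 (UAP56a). All of these lie in the lowest quintile of measured introns, which ends at 5.33. AT5G42050 scored 3.95, while the PTM intron scored 8.09. Over all nuclear retained introns, 912 of 3656 (24.9%) lay in that lowest quintile, against 19.6% of the other measured introns. The share was 31.7% of the 555 with a depth of at least 5, 46.0% of the 100 with a depth of at least 10 (95% Wilson interval 36.6% to 55.7%) and 12 of the 17 with both depth and spliced reads of at least 20. In other measured introns the share was 23.3% of the 837 with a depth of at least 5 and 23.1% of the 147 with a depth of at least 10 (17% to 30.6%). The base G at the fifth intron position, which pairs with U1 and U6 RNA, was present in 51.5% of retained introns, in 44.0% of those with a depth of at least 10 and in 29.4% of the 17, against 52.0% of the other measured introns and 55.1% of those with a depth of at least 10. These introns share libraries and in part genes, so the intervals describe counting error and no test was made. The retained sets are nested, and the 17 include the 8 named first. At a depth of at least 10, the median of spliced reads was 59 in retained and 343 in other measured introns. These sets thus differ in more than retention.

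Retained introns were richer in G and C. Their median GC was 34.2%, against 33.0% in the other measured introns, and the difference was positive in all 5 classes of spliced reads, from 0.47 to 2.33 percentage points. The share of measured introns that were retained rose across quintiles of GC, at 4.09%, 5.44%, 6.98%, 8.38% and 11.2%. With at least 20 spliced reads it rose from 1.61% to 5.47%. The exons beside them did not differ in this way: the median GC of the flanking 50 bases on each side was 43% against 44%, and the difference was 0 in 4 of the 5 classes. T made up a median of 40.2% of retained introns and 41.1% of the others.

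They were also shorter. The median length was 95 bases against 99, and the difference was negative in all 5 classes of spliced reads. Introns of 76 to 99 bases made up 57.7% of retained introns and 50.4% of the others, and introns of 200 bases or more made up 12.3% and 17.4%. Across quintiles of length the share retained fell from 9.26% to 5.40%. The median 5′ site score was 6.86 bits against 7.25, lower in 4 of the 5 classes and higher by 0.23 in the class under 10 spliced reads, where only 18 other introns stood for comparison. The median 3′ site score, over 14 intron bases and 1 exon base, was 7.79 bits against 8.00 and lower in all 5 classes.

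**Figure D4:**
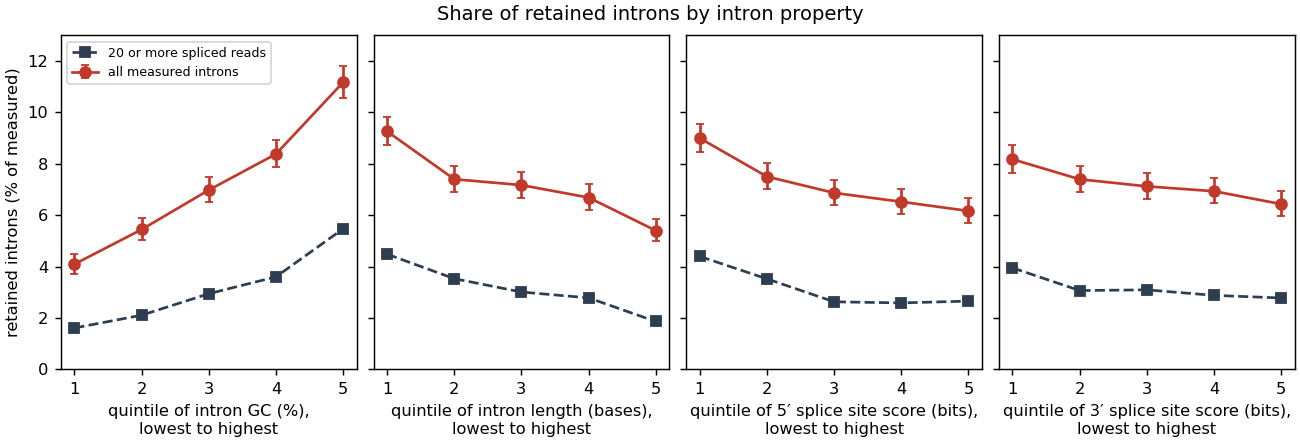
Share of measured introns that were retained (vertical, percent) in quintiles of intron GC, length, 5′ splice site score and 3′ splice site score (horizontal, lowest to highest); red circles are all measured nuclear introns with 95% Wilson intervals, dark squares those with at least 20 spliced reads. The share rises with GC from 4.09% to 11.2% and, over all measured introns, falls with the other 3 properties.

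Nearly all retained introns had the common ends. GT-AG introns made up 98.6%, and 46 were GC-AG and 5 AT-AC. Of the measured GC-AG introns 9.62% were retained and of the measured AT-AC introns 14.3% (5 of 35), against 7.18% of the GT-AG introns. The minor-class 5′ site was searched as the letters GTATCCTT or ATATCCTT at the start of the intron, on the intron's strand. It opened 105 measured introns, of which 12 were retained (11.4%, 95% Wilson interval 6.66% to 18.9%, which includes the 7.21% of all measured introns). A match is a description of these letters and not evidence of which spliceosome acts.

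The 12 included AT3G59310 at 0.447, AT1G17145 at 0.299, AT5G24450 at 0.276 and AT1G76170 at 0.273, whose sequences are given above. ASHH3, a histone methyltransferase, stood at 0.273, and DMC1, the recombinase of meiosis, at 0.167. The rest were AT1G02750, AT5G06590, TET10 (a tetraspanin), NHX6 (an endosomal sodium and proton exchanger), AT4G25290 and GAMMA-ADAPTIN 1 (a subunit of a vesicle coat adaptor), with ratios from 0.101 to 0.270. The fifth AT-AC intron, in AT3G08880, lacked those letters and had a ratio of 0.132. Spliced reads ran from 8 to 36 in the 12.

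All 3656 nuclear retained introns were found as introns of a RefSeq transcript. None was spanned by a RefSeq exon on its strand, and neither was any of the 47048 other measured introns. Introns whose name marked a known exon had been left out of both sets, so no result is drawn from this count. Of the nuclear retained introns 3562 (97.4%) lay between coding exons, 72 in a 5′ UTR and 22 in a 3′ UTR. The share of measured introns retained was 7.16% in coding regions, 8.91% in 5′ UTRs and 12.3% in 3′ UTRs. First introns made up 12.5% and last introns 12.5% of retained introns, against 12.1% and 13.9% of the others. An exon of another gene lay on the opposite strand in 40 (1.09%), against 0.695%.

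Most of the coding ones would interrupt the protein if read through. With the upstream exons spliced as annotated, an in-frame stop lay in 3171 of 3562 coding retained introns (89.0%), at a median of intron base 28. In 2796 (78.5%) an annotated exon junction lay after the intron with the stop. In 84 (2.36%) the length was a multiple of 3 and no stop lay in frame. The other measured coding introns gave 89.5%, 77.3% and 2.73% for these 3 shares, so the retained introns were close to the background in each. Lengths that are a multiple of 3 made up 32.9% and 32.2%.

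Most genes with a retained intron held only 1, while genes with 2 or more held 1562 of the 3658 retained introns. Of 2756 genes 2096 held 1, 486 held 2 and 174 held 3 or more. ACA10, an autoinhibited calcium pump of the plasma membrane, held 8 of 17 measured introns, with ratios from 0.107 to 0.341 and the highest in intron 3 of 34, where depth was 15 and 29 reads were spliced. AT1G53430, a leucine-rich repeat receptor kinase, held 8 of 13, all with ratios from 0.1 to 0.174. VPS35B, a retromer subunit of endosomal sorting, held 6 of 18 and NAPRT2, a nicotinate phosphoribosyltransferase of NAD synthesis, held 6 of 9. AT5G03330, a cysteine proteinase family member, held 5 of 7, and its intron 5 of 10 reached 0.263 with a depth of 10. The level of none of these 5 genes passed the test between the genotypes described below.

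In the list of SR proteins and splicing regulators 7 of the 28 genes with a measured intron held a retained one, a share close to the 24.1% of all genes with a measured intron. Over introns, 12 of 107 measured introns (11.2%) were retained, against 7.21% of all measured introns, while the list's median ratio was 0.018 against 0.015. AFC3, a LAMMER-type kinase that phosphorylates SR proteins, held 4, with ratios from 0.116 to 0.238 and the highest in intron 6 of 11. AFC2, a related kinase, held 1 at 0.137. U2AF65B, the large U2AF subunit that binds the pyrimidine stretch, held a 630-base intron at 0.206 with a depth of 10.9 and 35 spliced reads. SR45a held 2, at 0.2 and 0.118, and SR34b, an SR protein of the SF2 type, held 2 at 0.161 and 0.111. RSZ22a, a zinc-knuckle SR protein, held 1 in its 5′ UTR at 0.198, and PTB2, a polypyrimidine tract-binding protein, held 1 at 0.107. In the spliceosome core list 1 of 76 measured introns was retained (1.32%), the single intron in the 3′ UTR of BRR2B, a helicase of the U5 particle, at 0.122 with a depth of 1.67. The shares of these 2 lists were not tested against each other.

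In the list of ovule identity and integument genes 3 of 103 measured introns (2.91%) were retained, against 7.21% of all measured introns, while the list's median ratio was 0.016 against 0.015. All 3 were those of the HD-ZIP III genes printed above. The PHV intron had a ratio of 0.274, a depth of 15.5 and 41 spliced reads, the PHB intron 0.105, 7.55 and 64, and the CNA intron 0.147, 2.58 and 15. The PHV intron is the 14th of 17 and the PHB intron the 13th of 16, so both are followed by 3 more introns. The CNA intron is the 11th of 17. All 3 fall between codons, as do 57.7% of coding retained introns and 58.9% of the other measured coding introns. The 14th intron of CNA, also followed by 3, had a ratio of 0.031 and carried a warning for uneven cover. REV, another gene of the family, held none. Its own 14th intron, also followed by 3, had a ratio of 0.052 and carried a warning for uneven cover, so it was not measured. The last intron of PHV reached 0.173 with a depth of 13.3 and 64 spliced reads, but its 72 bases fall below the length limit. Intron 16 of CNA reached 0.158, above its retained intron, with a depth of 3.56 and 19 spliced reads. A warning for uneven cover left it out. Intron 14 of PHV and intron 13 of PHB were described together after their values were seen. Among embryo sac genes 1 of 26 measured introns was retained, in FIE, a Polycomb protein that represses seed development before fertilization, at 0.172 with a depth of 4.77.

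In the circadian clock list 2 of 45 measured introns (4.44%) were retained, against 7.21% of all measured introns. They lay in the MYB-like factors RVE1 at 0.165 and RVE8 at 0.1. The RVE8 intron passed at the limit with a depth of 1 and 9 spliced reads. Lists of flowering repressors, pollen markers and leaf photosynthesis markers had 3, 4 and 3 measured introns and none retained. These are too few to set against that share.

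Gene counts carry the sample names that the intron table lacks, so the levels of the genes with retained introns were compared between genotypes in the fit over all genes. In bulk ovules, fewer cells of a type and less RNA per cell cannot be told apart. Of 19297 genes tested, 589 (3.05%) were higher and 539 (2.79%) lower in PRP8Aa prp8bb at an adjusted p under 0.05 in edgeR's quasi-likelihood test. Of 2751 tested genes with a retained intron, 44 (1.6%) were higher and 24 (0.872%) lower, and their median log2 fold change was 0.00, against -0.01 over all genes. Genes with measured introns and none retained gave 314 (3.63%) higher and 124 (1.43%) lower of 8655. Their median level was 29.0 CPM, against 23.2 CPM in genes with a retained intron. The counts rest on single libraries: without wild type replicates 2 and 3 or PRP8Aa prp8bb replicate 3 in turn, 26, 23 and 19 of the genes with a retained intron were higher, and without wild type replicates 1 and 3 or PRP8Aa prp8bb replicates 2 and 3 in turn, 41, 6, 14 and 5 were lower.

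AT1G56300, a DnaJ-domain chaperone gene, measured 2.34, 3.98 and 2.55 CPM in wild type and 29.4, 22.9 and 26.5 CPM in PRP8Aa prp8bb. All 3 libraries of the second group were above all of the first, and the log2 fold change was 3.13 ± 0.21 (SE; adjusted p = 0.00011, edgeR). Its retained intron had a ratio of 0.122 from a depth of 9.34 and 67 spliced reads. AT5G11400, the kinase gene whose 2 measured introns were both retained, measured 0.935, 0.702 and 0.464 CPM in wild type and 8.77, 10.5 and 11.1 CPM in PRP8Aa prp8bb. The groups did not overlap, and the log2 fold change was 3.88 ± 0.28 (SE; adjusted p = 0.00015, edgeR).

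RPP4, an immune receptor of the TIR-NBS-LRR class, measured 22.9, 16.6 and 23.7 CPM in wild type and 57.6, 94.3 and 76.4 CPM in PRP8Aa prp8bb. Its groups did not overlap either, with a log2 fold change of 1.85 ± 0.20 (SE; adjusted p = 0.0016, edgeR). The 1 measured intron of RPP4 had a ratio of 0.455, with a depth of 10 and 12 spliced reads. ISA3, a starch debranching enzyme, rose by a log2 fold change of 1.3 ± 0.14 (SE), from 33.3 ± 5.08 to 81.9 ± 8.75 CPM (SD, n = 3 libraries each), and AT2G24300, a calmodulin-binding protein gene, by 1.58 ± 0.17. Reads of these genes in the intron table cannot be assigned to a genotype.

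RVE8 measured 26.2, 53.3 and 37.1 CPM in wild type and 7.71, 10.6 and 11.6 CPM in PRP8Aa prp8bb. Every PRP8Aa prp8bb library was below every wild type library, and the log2 fold change was -1.97 ± 0.27 (SE; adjusted p = 0.0060, edgeR). ABCG22, an ABC transporter gene, measured 42.4, 63.2 and 54.2 CPM in wild type and 21.3, 28.5 and 23.2 CPM in PRP8Aa prp8bb, again with no overlap (log2 fold change -1.14 ± 0.16). The protease gene AT4G17840, the hydrolase gene AT2G42690 and the subtilase gene AT3G46850 were also lower, with log2 fold changes of -1.08, -0.79 and -1.17. These 5 higher and 5 lower genes kept their calls under every alternative run. They were picked by smallest p, which favours groups that do not overlap. Embryo sac marker sums were lower in PRP8Aa prp8bb without overlap, while pollen marker sums overlapped, as given above. The part of either in these gene levels was not tested.

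**Figure D5:**
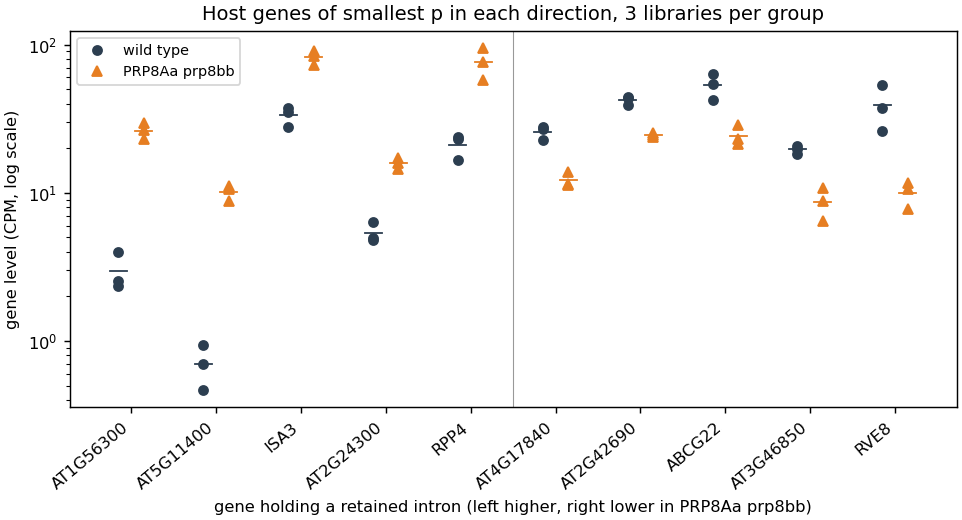
Gene level (vertical, CPM, log scale) in each of 3 libraries per group for the 5 genes with a retained intron that were higher (left of the line) and the 5 that were lower (right) in PRP8Aa prp8bb with the smallest p; dark circles are wild type, orange triangles PRP8Aa prp8bb, and short lines the means. The 2 groups do not overlap in any of the 10 genes, which the choice by smallest p favours.

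Of 97 tested genes with a retained intron of depth at least 10, 4 (4.12%) were higher and 1 (1.03%) lower. Over all genes tested the shares were 3.05% and 2.79%, and counts this small were not tested against them. Of the genes named above for the ratio or depth of their intron, LOG5 was lower, at 74.3, 60.5 and 61.4 CPM in wild type and 43.6, 41.9 and 42.7 CPM in PRP8Aa prp8bb. These groups did not overlap, and the log2 fold change was -0.61 ± 0.11 (SE; adjusted p = 0.0095, edgeR). The adjusted p was 0.062 without PRP8Aa prp8bb replicate 3. The levels of PETB, PETD, AT5G24810, ATAF1, LACS4, AtIPCS1, UAP56a, SR45a, AT1G02080, AT5G42050 and PTM did not pass the test. PTM, for one, measured 188, 210 and 203 CPM in wild type and 205, 212 and 217 CPM in PRP8Aa prp8bb, and these ranges overlapped. SR45a measured 54.6, 187 and 131 CPM in wild type, on either side of the 85.5, 107 and 98.1 CPM of PRP8Aa prp8bb. PHV, PHB and CNA measured 93.3 ± 7.83, 98.4 ± 7.43 and 62.6 ± 3.49 CPM in wild type and 98.0 ± 3.81, 108 ± 8.96 and 62.7 ± 5.60 CPM in PRP8Aa prp8bb (SD, n = 3 libraries each), with no call. BRR2B measured 46.6, 43.0 and 40.4 CPM in wild type and 52.2, 72.5 and 60.5 CPM in PRP8Aa prp8bb. Its groups did not overlap, and the adjusted p was 0.051 in edgeR and 0.018 to 0.22 across the alternatives.

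Exon bins came closest to a reading of the introns themselves by library. A bin inside an intron exists only where some annotated transcript has an exon. Its counts can include reads of that transcript and do not measure retention alone. Over all 116071 bins tested for usage relative to their gene, 2 (0.00172%) passed an adjusted p under 0.05 in edgeR's diffSpliceDGE. Bins that lie inside a retained intron numbered 46, of which 4 had enough counts for the test, in VLN1, HSP101, AAE14 and AT1G68820. Each of the 4 lay at an edge of its intron. None of the 4 passed in edgeR, at an adjusted or at an unadjusted p under 0.05. In VLN1 the counts of the 6-base bin at the start of the intron were 1, 20 and 13 for wild type and 14, 5 and 6 for PRP8Aa prp8bb, and these ranges overlapped. All 46 bins together held 7.47, 12.2 and 9.98 CPM of the library's bin counts in wild type and 9.53, 8.98 and 9.93 CPM in PRP8Aa prp8bb, and the second range lay within the first. In HSP101, a heat shock chaperone of the Clp family, the 18-base bin at one edge of the intron took 0.287%, 0.576% and 0.425% of the counts over all bins of HSP101 in the wild type libraries and 0.873%, 1.18% and 1.5% in PRP8Aa prp8bb. These groups did not overlap, and the usage log2 fold change of 1.01 had an unadjusted p of 0.47 in edgeR. The HSP101 share in wild type replicate 1 rests on 1 count. The 46 bins together held 55 counts in wild type replicate 1 and 168 to 281 in the other libraries, and the remaining bins held too few counts for the test.

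Of 6993 tested bins that abut a retained intron, 1 passed and 92 (1.32%) had an unadjusted p under 0.05, against 1.59% of all bins and 1.18% of bins that abut other measured introns only, where 1 of 65654 passed. Each share lies under the 0.05 that a calibrated test gives without any change. The bin test was thus conservative here, and bins without a call, inside or beside introns, are not shown to be unchanged. The 1 bin lay in PHT4;3, a plastid phosphate transporter of the PHT4 family, at chr3:17308627-17308990. It held 1.62%, 2.64% and 2.39% of its gene group's bin counts in wild type and 1.11%, 0.825% and 0.954% in PRP8Aa prp8bb. The groups did not overlap, and its usage log2 fold change was -1.25 (adjusted p = 0.033, edgeR). The intron beside it had a ratio of 0.133 from a depth of 2 and 13 spliced reads. The bin group merges PHT4;3 with its neighbour AT3G46970, and its adjusted p was 0.089 without PRP8Aa prp8bb replicate 2 and close to 1 without wild type replicate 2, wild type replicate 3 or PRP8Aa prp8bb replicate 3, each of which ended the call.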

How the data were processed

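Ovule RNA was sequenced as stranded, ribosome-depleted libraries. The submitters' processing notes name TAIR10, STAR, Trimmomatic, DESeq2 and featureCounts (Subread 1.6.0). Per the file headers, the authors deposited raw counts per gene and per exon bin from featureCounts. Another deposited table, in IRFinder's layout and with no header or sample, gives depth (signal), counts of border and spliced reads, and the retention ratio as a fraction; its ratio equalled depth over depth plus the larger splice count within 0.001 in all 3658 retained introns. How reads were pooled for it is not given in the sources used here. The authors' deposited table of differential expression was not used here.

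Samples were grouped by title. The labels call the replicates biological but name no plants, and p-values thus cover only the spread among libraries, which may be technical. The gene test was edgeR 4.0.16 on all genes (quasi-likelihood F-test, robust fit, TMM, filterByExpr, Benjamini-Hochberg) and the bin test diffSpliceDGE (at least 10 counts in 3 libraries) in R 4.3.3. Both fits were tested on simulated data. CPM of genes uses TMM-scaled library sizes, and CPM of bins uses the library's unscaled total of bin counts. Positions, transcripts and sequences came from RefSeq TAIR10.1, where 99.95% of matched genes had identical ends and 2753 of 2756 genes with a retained intron were found. Splice sites were scored as summed log2 odds of letter shares against 0.25. Wilson intervals (95%) cover counting error only, and those of border shares are too narrow because a spliced read counts at each end. Retained introns, the 8 gene lists (125 genes), and the rules for naming were chosen with earlier results of these data known. Named were the 10 introns of highest ratio with depth and splices of at least 20, the 5 deepest, the 5 genes with most, up to 4 per list, 3 on each side of the limit, and up to 5 genes or bins of smallest p per direction or test; other names were chosen after their values were seen. Other introns of named list genes, minor-class introns and introns of ratio 0.5 or more belong to the last kind. Alternatives were DESeq2 1.42.0, upper-quartile factors, no low-count filter, a replicate block, halved counts of wild type replicate 1, each library left out, and other limits on ratio, evidence and name.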

Additional observations from a re-analysis of the deposited data

How the results depend on the processing

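The number of retained introns follows its limits: 10719 at a ratio of at least 0.05, 666 at 0.2, 1488 with depth plus spliced reads of at least 20 and 168 at 50. The properties kept their direction. The median GC difference was 1.62 points at a ratio of 0.2 and 1.76 at evidence of 50, the length difference -6 and -8 bases, and the 5′ score difference -0.71 and -0.55 bits. At a ratio of 0.2 the 3′ score difference was -0.39 bits and first introns made up 14.0%. At evidence of 50, last introns made up 10.2%, in-frame stops 87.7% and lengths divisible by 3 34.6%. GC-AG introns made up 1.96% and 1.81%. Keeping only introns whose name is marked clean kept the direction of each difference.

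Leaving out 1 library at a time gave 19 to 55 genes with a retained intron that were higher, 5 to 41 that were lower and 0 to 3 called bins. Replicate numbers did not pair the libraries: same-numbered libraries' deviations correlated at -0.060, -0.075 and 0.13. With the replicate block, 32 such genes were higher and 17 lower, 0 bins were called, and the PHT4;3 bin had an adjusted p of 0.19; the block changed no other call. With DESeq2, upper-quartile factors, no low-count filter or halved counts of wild type replicate 1, BRR2B passed at adjusted p of 0.023, 0.046, 0.018 and 0.045, and no other named gene gained or lost its call. The PHT4;3 bin kept its call with upper-quartile factors and with bins of at least 1 count; DESeq2, halved counts and the gene table without its filter were not run on bins.

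Some genes below the test's threshold changed sign when 1 library was left out. Their log2 fold changes then ran from -0.19 to 0.098 for AT5G24810, -0.062 to 0.013 for UAP56a, -0.72 to 0.058 for SR45a, -0.063 to 0.27 for AT5G42050, -0.13 to 0.11 for AFC3, -0.044 to 0.077 for CNA, -0.10 to 0.085 for SR34b, -0.014 to 0.15 for VPS35B and -0.19 to 0.041 for AT5G03330. Upper-quartile factors gave -0.0087 for CNA and -0.0095 for SR34b, and the replicate block gave -8.1e-05 for CNA. SR45a passed at -0.72 without wild type replicate 1 (adjusted p = 0.034, edgeR). The cause of these changes was not tested. Depth limits single introns, since most passed at a depth under 5.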
